A study of Rattus norvegicus with 18 samples.

Results

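The genes described here are *Tcf21*, *Inmt*, *Npnt*, *Limch1*, *Macf1*, *Fgf10*, *Fgfr4*, *Gpc3*, *Mfap4*, and *Scube2*, which mark the fibroblasts of the alveolar wall. They were taken by name from the deposited tables of rat lung RNA-seq, and all 10 were found among the 22081 entries listed there. The lungs came from male F344/DuCrlCrlj rats, which were given MWNT-7, a rigid multiwalled carbon nanotube (MWCNT), or the vehicle, saline with Tween 80, by intratracheal instillation every 4 weeks from 9 weeks of age. The dose of MWNT-7 was 0.5 mg/kg. Lungs were taken at 3 time points, Years 0.5, 1, and 2 of the experiment, and 3 control rats and 3 MWCNT-treated rats were sequenced at each, so that 18 separate animals form 6 groups. The tissue was a piece of the accessory lobe without visible tumor nodules. The authors also checked the rest of the lobe by microscopy for the absence of tumors, but small lesions may have been included. In such bulk tissue, fewer cells of a type and less RNA per cell cannot be told apart.

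Alveolar fibroblasts lie beside the alveolar epithelium and the capillaries, build the elastic scaffold of the septum, and supply the epithelium with growth signals. *Tcf21* is the basic helix-loop-helix transcription factor of this lineage, *Fgf10* encodes a ligand that mesenchyme sends to epithelium, and *Npnt*, *Mfap4*, and *Gpc3* encode matrix or cell surface proteins. No member is exclusive to the cell type. *Macf1* is expressed broadly, *Mfap4* also in smooth muscle, and *Tcf21* also in fibroblasts of the heart.

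The libraries held 13297643 to 17868851 counted reads in control rats and 14661589 to 21130757 with MWCNT. All 10 genes passed the filter on low counts in every comparison, and the lowest count of any member in any rat was 118, for *Fgf10*. Levels are given as TPM, a unit that allows for gene length and library size, and changes as log2 fold changes from the edgeR quasi-likelihood test of the counts, with the standard error and the Benjamini-Hochberg FDR over all genes tested. A gene was called when its FDR was below 0.05, and called a DEG when its absolute log2 fold change was also above 1. The TPM scale moved the median of all genes by -0.14, -0.24, and -0.21 on the log2 scale at the 3 time points relative to that test. TPM values thus show larger falls and smaller rises than that test by about that much. Which scale is nearer the true change was not tested. Some libraries stood apart. The second MWCNT-treated rat of Year 1 had low values of long genes, which touches *Macf1*, and control rats of Year 2 differed in the counts of *Mfap4*. Both are described with those genes.

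In the 9 control rats, *Mfap4* was the most abundant member at 1994 ± 1015 TPM (SD, n = 9) and *Fgf10* the least abundant at 6.77 ± 1.28 TPM. Between them, *Tcf21* was at 298 ± 27.0 TPM, *Limch1* at 282 ± 38.2 TPM, and *Gpc3* at 268 ± 47.9 TPM, and these 3 levels did not differ beyond their spread. *Macf1* at 147 ± 10.1 TPM and *Npnt* at 142 ± 31.8 TPM were also alike. *Inmt* at 107 ± 19.0 TPM and *Fgfr4* at 91.5 ± 8.96 TPM had overlapping ranges of 77.4 to 150.1 TPM and 82.5 to 106 TPM. *Scube2* followed at 50.2 ± 13.8 TPM.

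**Figure D1:**
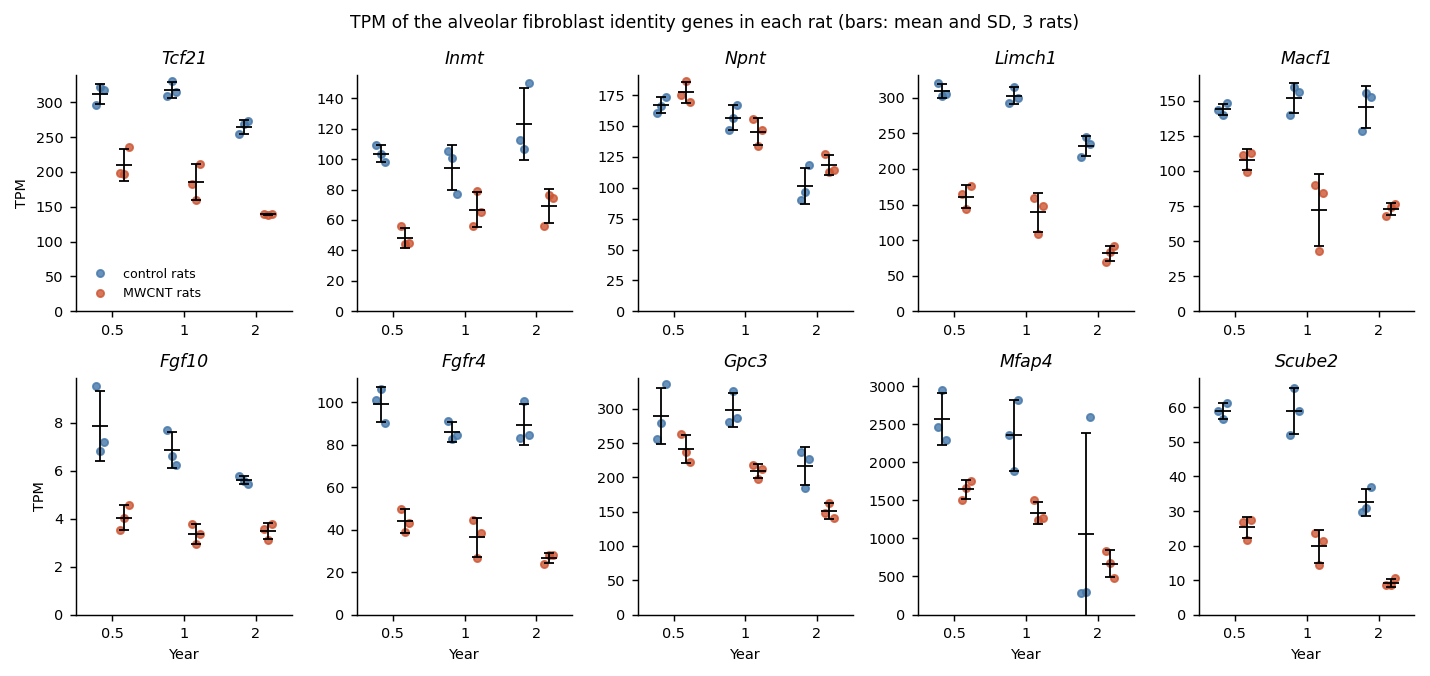
TPM of each gene (vertical axis, from 0) in each rat by time point (horizontal axis), with blue points for control rats, red points for MWCNT-treated rats, and black bars for the mean and SD of 3 rats. Red points lie below blue points for most genes, *Npnt* shows no such gap, and the control rats of Year 2 split for *Mfap4*, whose SD bar is cut at 0.

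Most members were lower in the MWCNT-treated lungs, by folds of at most 3.02, and 1 was higher. At Year 0.5, 9 of the 10 were called, 8 lower and 1 higher, where 38.8% of the 14315 genes tested were called, 18.6% lower and 20.2% higher. At Year 1, 8 of the 10 were called, all lower, where 41.2% of all genes were called and 19.6% were lower. At Year 2, 9 of the 10 were called, again 8 lower and 1 higher, where 49.2% of all genes were called, 24% lower and 25.2% higher. The median log2 fold change of the members was -0.65, -0.69, and -0.67 at the 3 time points, and that of all genes tested was -0.02, 0.00, and -0.01.

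DEGs were fewer. *Fgfr4* and *Scube2* met the criterion at Years 0.5 and 1, and *Limch1* joined them at Year 2, so that 2, 2, and 3 of 10 were lower DEGs, where 3.03%, 4.09%, and 8.22% of all genes were. The counts of 2 depend on single rats, since at Year 0.5 both genes and at Year 1 *Fgfr4* lie close to the limit. Without the second MWCNT-treated rat of Year 0.5 no member was a DEG, with log2 fold changes of -0.95 for *Fgfr4* and -0.98 for *Scube2*, both still past the FDR. Leaving out the second control rat or the third MWCNT-treated rat of that year left 1 DEG, and leaving out the first control rat or the second MWCNT-treated rat of Year 1 also left 1.

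In TPM, the 3 MWCNT-treated rats lay below the 3 control rats for 8 of the 10 genes at each time point, where 40.7%, 46.8%, and 45.7% of all genes tested showed that order. *Tcf21*, *Limch1*, *Macf1*, *Fgf10*, *Fgfr4*, and *Scube2* went further, since all 9 MWCNT-treated rats were below all 9 control rats, an order found in 19.6% of 14843 genes. *Inmt*, *Npnt*, *Gpc3*, and *Mfap4* overlapped between the treatments when the time points were pooled.

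**Figure D2:**
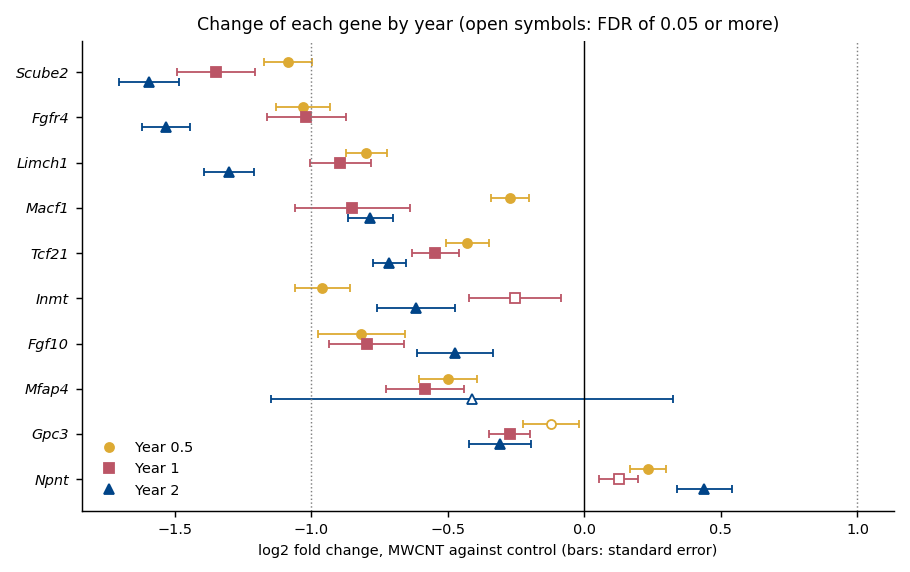
Log2 fold change of MWCNT-treated against control rats (horizontal axis, bars show the standard error, 3 rats in each group) for each gene at Year 0.5 (circles), Year 1 (squares), and Year 2 (triangles), ordered by the value at Year 2. *Scube2* reaches -1.59 and *Npnt* alone lies to the right of 0, with *Mfap4* at Year 2 having the widest bar.

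Promoter windows of 4 members are shown because these genes mark the ends of the range, *Tcf21* as the factor of the lineage, *Fgfr4* and *Scube2* as the strongest falls, and *Npnt* as the gene that rose. The sequences are the 250 bases before the start in RefSeq on the assembly GRCr8, which differs from the build of the counts, at chr1:24520249-24520498 (plus strand), chr17:9481390-9481639 (minus strand), chr1:173334235-173334484 (minus strand), and chr2:224133436-224133685 (minus strand). Capitals mark GGGCGG or its reverse complement, the GC box that Sp factors recognise.
Tcf21: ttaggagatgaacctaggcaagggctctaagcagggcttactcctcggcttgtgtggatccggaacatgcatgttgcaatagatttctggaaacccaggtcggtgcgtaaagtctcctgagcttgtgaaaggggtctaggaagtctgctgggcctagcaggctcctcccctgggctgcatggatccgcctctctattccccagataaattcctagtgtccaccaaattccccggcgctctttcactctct
Fgfr4: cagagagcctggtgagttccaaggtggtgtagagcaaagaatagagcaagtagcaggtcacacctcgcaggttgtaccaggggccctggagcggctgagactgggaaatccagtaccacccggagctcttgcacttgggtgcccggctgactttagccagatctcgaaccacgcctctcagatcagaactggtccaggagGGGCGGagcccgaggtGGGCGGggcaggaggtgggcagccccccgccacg
Scube2: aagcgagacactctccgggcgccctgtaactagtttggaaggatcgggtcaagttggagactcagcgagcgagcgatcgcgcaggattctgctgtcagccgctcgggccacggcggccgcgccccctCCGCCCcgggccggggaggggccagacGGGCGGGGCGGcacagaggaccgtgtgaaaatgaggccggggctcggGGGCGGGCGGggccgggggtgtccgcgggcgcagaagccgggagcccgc
Npnt: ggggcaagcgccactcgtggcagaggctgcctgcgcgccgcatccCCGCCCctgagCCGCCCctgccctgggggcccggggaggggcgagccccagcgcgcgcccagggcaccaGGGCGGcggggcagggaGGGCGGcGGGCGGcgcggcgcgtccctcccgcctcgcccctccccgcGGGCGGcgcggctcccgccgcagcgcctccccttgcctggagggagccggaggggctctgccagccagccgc

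The GC box occurred 0 times before *Tcf21*, 2 times before *Fgfr4*, 5 times before *Scube2*, and 6 times before *Npnt*, overlapping matches included, on either strand. The GC content of these windows was 53.6%, 62.8%, 73.6%, and 84.0%. RefSeq windows were at hand for 9 of the 10 members, all but *Mfap4*, and made 12 windows because *Limch1* has 4 starts. GGGCGG was in 6 of the 12 and in 30.5% of all 33469 windows. CANNTG, the E-box that basic helix-loop-helix factors such as the product of *Tcf21* recognise, was in 3 of the 12 and in 65.5% of all windows, and its form CAGCTG was in 0 of the 12 and in 12.0%. TATAAA was in 3 of the 12 and in 12.9%, and its windows belonged only to *Inmt* and to starts of *Limch1*. The 4 windows of *Limch1* belong to the same gene, so these shares count windows and not genes. Both *Npnt*, which rose, and *Scube2*, which fell most, thus had several GC boxes in this window.

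*Tcf21* (chr1:23906717-23909566, plus strand, in the rat build Rnor_6.0 of the files) was measured at 296, 322, and 318 TPM in the control rats of Year 0.5 and at 198, 196, and 236 TPM in the MWCNT-treated rats. At Year 1 the controls were at 308, 330.1, and 314 TPM and the treated rats at 183, 160.4, and 212 TPM. At Year 2 the controls were at 254, 268, and 273 TPM and the treated rats at 139.7, 138, and 139 TPM. The groups were separate at each time point, and the treated rats of Year 2 were nearly equal. *Tcf21* fell by 0.43 ± 0.08 (FDR = 0.00277), 0.55 ± 0.09 (FDR = 0.00129), and 0.71 ± 0.06 (FDR = 1.73e-05) on the log2 scale, which makes the controls 1.35-, 1.46-, and 1.64-fold higher.

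Since *Tcf21* is also a gene of the heart, markers of heart muscle were set beside it. Of 8 heart muscle markers tested at Year 0.5, 6 were lower, as were 2 of 8 at Year 1 and 1 of 7 at Year 2, and *Myl2*, the ventricular light chain, was at -3.96 at Year 1 (FDR = 0.0024). The 10 markers summed to 80.2 to 692 TPM in control rats and to 19.2 to 211 TPM after MWCNT, and *Nppa* was at 0 in every rat of 4 groups. The part of heart tissue in the values of *Tcf21* was not tested.

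*Limch1* (chr14:42762587-43072843, minus strand), which encodes an actin-associated protein that activates non-muscle myosin, had 320.1, 302, and 306 TPM in the controls of Year 0.5 against 165, 143, and 176 TPM in the treated rats. At Year 1 the values were 293, 316, and 299.6 TPM against 159.9, 108, and 149 TPM, and at Year 2 they were 217, 245, and 236 TPM against 69.9, 82.7, and 91.5 TPM. *Limch1* was thus separated by a wide gap at every time point. Its log2 fold change was -0.80 ± 0.08 (FDR = 9.26e-05), -0.89 ± 0.11 (FDR = 0.000362), and -1.30 ± 0.09 (FDR = 6.46e-06).

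*Macf1* (chr5:141039468-141363524, minus strand) encodes a very large protein that links microtubules to actin. Its TPM was 144, 140.0, and 148 in the controls and 111, 99.2, and 113 in the treated rats at Year 0.5. At Year 1 it was 139.7, 159.7, and 156 against 89.7, 42.8, and 84.3, and at Year 2 it was 129, 156, and 153 against 68.1, 74.3, and 76.2. The second treated rat of Year 1 was far below the others of its group. *Macf1* fell by 0.27 ± 0.07 (FDR = 0.0127), 0.85 ± 0.21 (FDR = 0.0114), and 0.78 ± 0.08 (FDR = 6.51e-05) on the log2 scale. The call at Year 0.5 was lost in one model of all 18 rats (FDR = 0.188) and without the second treated rat of Year 0.5 (FDR = 0.0550).

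The second treated rat of Year 1 was low in long genes as a class. Among 14843 genes, only 2 were longer than *Macf1* by the length that counts and TPM imply. The longest and the shortest 10% were compared, keeping genes with a mean log2 CPM above 3, which left 1273 long and 755 short genes. In the second treated rat of Year 1, these long genes lay at a median of -0.16 relative to the mean of the group in log2 CPM. In the other 17 rats they lay between -0.07 and 0.09, and the value of 0.09 belongs to the first treated rat of the same group. The 755 short genes lay at 0.13 in the second treated rat of Year 1, which did not set the rat apart. They lay at 0.12 in the first control of Year 2 and at 0.11 in the first control of Year 1. In the second treated rat of Year 1, *Macf1* deviated by -0.61, *Fgfr4* by -0.36, *Scube2* by -0.35, and *Limch1* by -0.27. Of the short genes, *Inmt* deviated by 0.33 and *Tcf21* by -0.12. *Inmt* also lay at -0.29 in the third control of Year 1 and at 0.27 in the third control of Year 2. *Fgf10*, longer than *Limch1*, had 8.85 and 7.94 CPM in the other treated rats of Year 1 and 7.46 CPM in the second. Without this second rat, the log2 fold change at Year 1 was -0.61 for *Macf1* (FDR = 0.000422), -0.78 for *Limch1*, -0.87 for *Fgfr4*, and -1.20 for *Scube2*. *Inmt* was then called at -0.44 (FDR = 0.0491). The number of members called at Year 1 was then 9, and the part of gene length in these values was otherwise not tested.

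**Figure D3:**
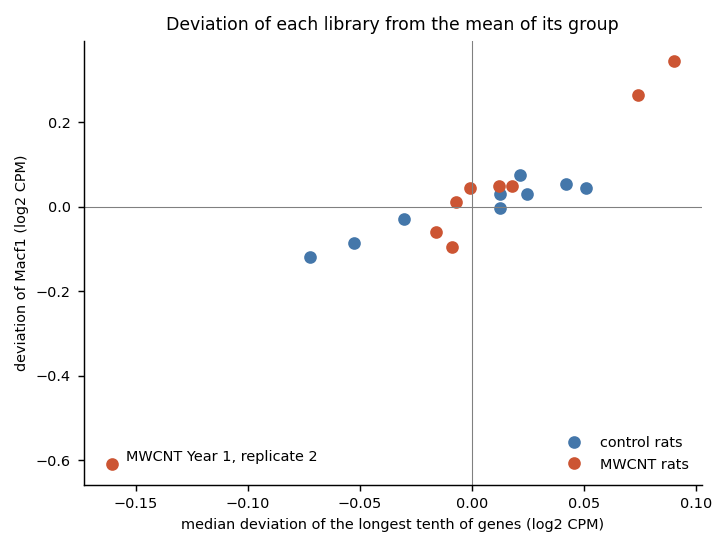
Deviation of *Macf1* from the mean of its group (vertical axis, log2 CPM) against the median deviation of the 1273 long genes with a mean log2 CPM above 3 in the same library (horizontal axis, log2 CPM), 1 point per rat, blue for control and red for MWCNT-treated rats. The second MWCNT-treated rat of Year 1 lies at -0.16 and -0.61, apart from the other 17 rats.

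*Fgf10* (chr2:51672722-51750369, plus strand), the growth factor through which lung mesenchyme directs budding and repair of the epithelium, was low in level. The controls of Year 0.5 had 9.55, 6.83, and 7.20 TPM and the treated rats 3.54, 4.03, and 4.56 TPM. At Year 1 the values were 7.69, 6.61, and 6.26 TPM against 3.77, 2.93, and 3.36 TPM. At Year 2 they were 5.79, 5.58, and 5.45 TPM against 3.55, 3.11, and 3.79 TPM. The treated groups stayed between 2.93 and 4.56 TPM, and the gap at Year 2 was the narrowest, with the lowest values of the controls. The decline of the controls from Year 0.5 to Year 2 was not called (-0.48 ± 0.14, FDR = 0.0511). A test of the difference between the changes at Years 2 and 0.5 gave 0.35 ± 0.20 (FDR = 0.478). *Fgf10* fell by 0.82 ± 0.16 (FDR = 0.00399), 0.80 ± 0.14 (FDR = 0.00207), and 0.47 ± 0.14 (FDR = 0.0196), and the call at Year 2 was lost without the first control rat (FDR = 0.0517) or the second treated rat (FDR = 0.0625).

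*Fgfr4* (chr17:9990078-10004321, minus strand), a receptor tyrosine kinase for fibroblast growth factors, had 101, 106, and 89.98 TPM in the controls and 49.8, 38.7, and 43.3 TPM in the treated rats at Year 0.5. The values were 91.3, 82.5, and 84.4 TPM against 44.6, 26.4, and 38.2 TPM at Year 1, and 83.1, 101, and 84.4 TPM against 23.8, 27.8, and 28.2 TPM at Year 2. The highest treated rat of all, at 49.8 TPM, was well under the lowest control, at 82.5 TPM. Its log2 fold change was -1.03 ± 0.10 (FDR = 9.63e-05), -1.02 ± 0.14 (FDR = 0.000718), and -1.53 ± 0.09 (FDR = 2.32e-06), and the controls were 2.89-fold higher at Year 2.

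Other genes of FGF signaling were examined as a list of 14 ligands, receptors, feedback inhibitors, and targets. At Year 0.5, 8 were lower and 1 higher. At Year 1, 7 were lower and none was higher, and at Year 2, 9 were lower and 1 was higher. Of all genes tested, 18.6%, 19.6%, and 24% were lower. The median log2 fold change of the 14 genes was -0.55, -0.38, and -0.64. The ligand gene *Fgf9* had the lowest value at Year 0.5 (-1.25, FDR = 0.017) and Year 2 (-2.08, FDR = 0.0077), on counts of at most 36 per rat, and the feedback inhibitor gene *Spry1* the lowest called value at Year 1 (-0.60, FDR = 0.0020). *Fgfr2*, which encodes the main receptor of FGF10 on epithelium, was not called, at 0.05, 0.16, and -0.10, whereas *Fgfr1* fell by 0.67, 0.58, and 0.69 and *Fgfr3* by 0.53, 0.59, and 0.60 on the log2 scale. *Fgf7*, whose product is the closest relative of FGF10 and shares its receptor, was at -0.64 (FDR = 0.045), -0.43 (FDR = 0.16), and -0.92 (FDR = 0.012). Called higher were the target gene *Etv5* at Year 0.5 (0.24, FDR = 0.014), which the list of alveolar type 2 markers also holds, and the inhibitor gene *Spred1* at Year 2 (0.40, FDR = 0.024).

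*Scube2* (chr1:174428699-174495258, minus strand) encodes a secreted protein that helps release lipid-modified hedgehog ligands from the cells that make them. The controls had 58.9, 56.8, and 61.2 TPM and the treated rats 26.8, 21.6, and 27.3 TPM at Year 0.5. At Year 1 they had 52.2, 65.7, and 59.0 TPM against 23.6, 14.4, and 21.4 TPM, and at Year 2 they had 29.8, 30.8, and 36.9 TPM against 8.51, 8.68, and 10.6 TPM. *Scube2* was the member with the largest change at each time point, and the controls of Year 2 nearly reached the level of the treated rats of Year 0.5. It fell by 1.09 ± 0.09 (FDR = 4.02e-05), 1.35 ± 0.14 (FDR = 0.000159), and 1.59 ± 0.11 (FDR = 5.87e-06) on the log2 scale. At Year 2, the controls were 3.02-fold higher, and 2.48% of the genes tested had a lower log2 fold change.

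Of 10 genes of the hedgehog pathway, 6 were lower and 1 higher at Year 0.5, 5 were lower and 1 higher at Year 1, and 6 were lower and 1 higher at Year 2. Of all genes tested, 18.6%, 19.6%, and 24% were lower. The lowest of the 10 was the ligand gene *Ihh*, at -1.44 (FDR = 0.0070), -1.65 (FDR = 0.0020), and -2.07 (FDR = 0.0010), on counts of at most 79 per rat. The gene that was higher at each time point was *Hhip*, whose product binds and blocks hedgehog ligands, at 0.74 (FDR = 0.00012), 0.67 (FDR = 0.0019), and 1.42 (FDR = 5.9e-06). The paralogs of *Scube2* did not share its change, since *Scube1* was at 0.27, 0.31, and 0.39 and was called higher at Year 2 (FDR = 0.0049), and *Scube3* was not called, at 0.24, -0.14, and 0.50.

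*Gpc3* (chrX:139579268-139916883, minus strand), a heparan sulfate proteoglycan held on the cell surface by a lipid anchor, changed little. The controls of Year 0.5 had 256, 279, and 335 TPM and the treated rats 263, 237, and 223 TPM, with overlap. At Year 1 the values were 281, 326, and 287 TPM against 218, 198, and 212 TPM, and at Year 2 they were 236, 185, and 227 TPM against 148, 163, and 140.5 TPM, without overlap. The log2 fold change was -0.12 ± 0.10 (FDR = 0.381), -0.27 ± 0.07 (FDR = 0.0173), and -0.31 ± 0.11 (FDR = 0.0466). The call at Year 2 was the weakest of the members and was lost in 5 of the 6 fits that left out a rat of Year 2. The call at Year 1 was lost without the second control (FDR = 0.0769) or the third treated rat (FDR = 0.0560). Among the other glypicans, *Gpc2* was at -0.94 (FDR = 0.020), -0.55 (FDR = 0.11), and -1.28 (FDR = 0.00097), *Gpc1* was called at Year 1 (-0.88, FDR = 0.0034), *Gpc4* was called at Year 0.5 (-0.26, FDR = 0.022), and *Gpc6* was not called.

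*Npnt* (chr2:238002990-238068694, minus strand) encodes nephronectin, a matrix ligand of the integrin that contains the product of *Itga8*. It was the member that ran the other way. The controls had 161, 166, and 173 TPM at Year 0.5 and the treated rats 175, 187, and 169 TPM. At Year 1 the values were 147, 156, and 167 TPM against 155, 134, and 147 TPM, and at Year 2 they were 89.9, 96.4, and 118 TPM against 127, 113, and 114 TPM. The groups overlapped at each time point. *Npnt* rose by 0.23 ± 0.07 at Year 0.5 (FDR = 0.0226) and by 0.44 ± 0.10 at Year 2 (FDR = 0.00612), and was at 0.13 ± 0.07 at Year 1 (FDR = 0.186). Both calls depended on the scale, since limma on log2(TPM + 1) gave 0.09 (FDR = 0.250) and 0.22 (FDR = 0.103), and scaling by library size alone gave 0.13 at Year 0.5 (FDR = 0.135). The call at Year 0.5 was also lost in 4 of the 6 fits that left out a rat, with FDR values up to 0.0859. *Itga8* was lower at Year 0.5 (-0.52, FDR = 0.00037) and Year 1 (-0.56, FDR = 0.0021) and was at -0.12 at Year 2 (FDR = 0.24). It is named after its values were seen. *Egfl6*, which encodes the closest relative of nephronectin, rose by 1.16 (FDR = 7.1e-06), 1.14 (FDR = 2.6e-05), and 1.51 (FDR = 1.2e-05).

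*Inmt* (chr4:85381889-85386231, minus strand), the gene of indolethylamine N-methyltransferase, a small cytosolic enzyme, showed the most uneven course. The controls had 109, 103, and 98.1 TPM and the treated rats 55.9, 43.9, and 44.9 TPM at Year 0.5. At Year 1 the ranges met, with 105, 101, and 77.4 TPM in the controls and 55.8, 79.0, and 65.5 TPM in the treated rats. At Year 2 the controls had 112, 107, and 150.1 TPM and the treated rats 56.0, 76.3, and 74.7 TPM. The log2 fold change was -0.96 ± 0.10 (FDR = 0.000161), -0.25 ± 0.17 (FDR = 0.258), and -0.62 ± 0.14 (FDR = 0.00604), and limma on log2(TPM + 1) called the value at Year 1 (-0.50, FDR = 0.0274). A test of the difference between the changes at Years 1 and 0.5 gave 0.70 ± 0.23 on the log2 scale with an FDR of 0.545. *Nnmt*, a related methyltransferase gene, rose by 0.85 (FDR = 0.030), 1.17 (FDR = 0.0028), and 1.13 (FDR = 0.0023).

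*Mfap4* (chr10:47765432-47768483, plus strand) encodes a glycoprotein of elastic fibers. At Year 0.5 it had 2469, 2951, and 2289 TPM in the controls and 1511, 1663, and 1761 TPM in the treated rats, and at Year 1 it had 2356, 1891, and 2825 TPM against 1502, 1245, and 1269 TPM. At Year 2 the controls had 279.6, 293, and 2590.3 TPM and the treated rats 839.9, 682, and 486 TPM. A pair of controls lay below all treated rats and the third far above them. *Mfap4* fell by 0.50 ± 0.11 at Year 0.5 (FDR = 0.0059) and by 0.58 ± 0.14 at Year 1 (FDR = 0.0111), and was at -0.41 ± 0.74 at Year 2 (FDR = 0.668). Both calls were lost in one model of all 18 rats (FDR = 0.499 and 0.398). The value at Year 2 rests on the third control, since without it *Mfap4* was at 1.43, higher in the treated rats (FDR = 0.000906).

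The split of the controls was mirrored by another entry, LOC102553715 (chr10:49000973-49003931, span 2959 bases), which lies 1.23 Mb from *Mfap4* (span 3052 bases). In the 3 controls of Year 2, *Mfap4* had 3295, 3529, and 28311 counts and LOC102553715 had 40476, 39894, and 1831 counts. The sums were 43771, 43423, and 30142. LOC102553715 thus held 92.5%, 91.9%, and 6.07% of the sum in these rats, 14.2% to 37.8% in the other controls, and 27.6% to 66.8% in the treated rats. Within groups, the SD on the log2 CPM scale was 0.78 for *Mfap4*, 1.09 for LOC102553715, and 0.14 for their sum. Whether the entries share reads was not tested, and *Mfap4* alone is uncertain for this reason.

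As a setting added after the values were seen, the counts of both entries were summed. The sum was lower in the treated rats at each time point, by 0.42 ± 0.09 (FDR = 0.00492), 0.47 ± 0.09 (FDR = 0.00389), and 0.93 ± 0.13 (FDR = 0.000302) on the log2 scale. At Year 2, all 10 members were called with the sum in place of *Mfap4*. LOC102553715 alone was called at no time point, at -0.25, -0.22, and -1.24.

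**Figure D4:**
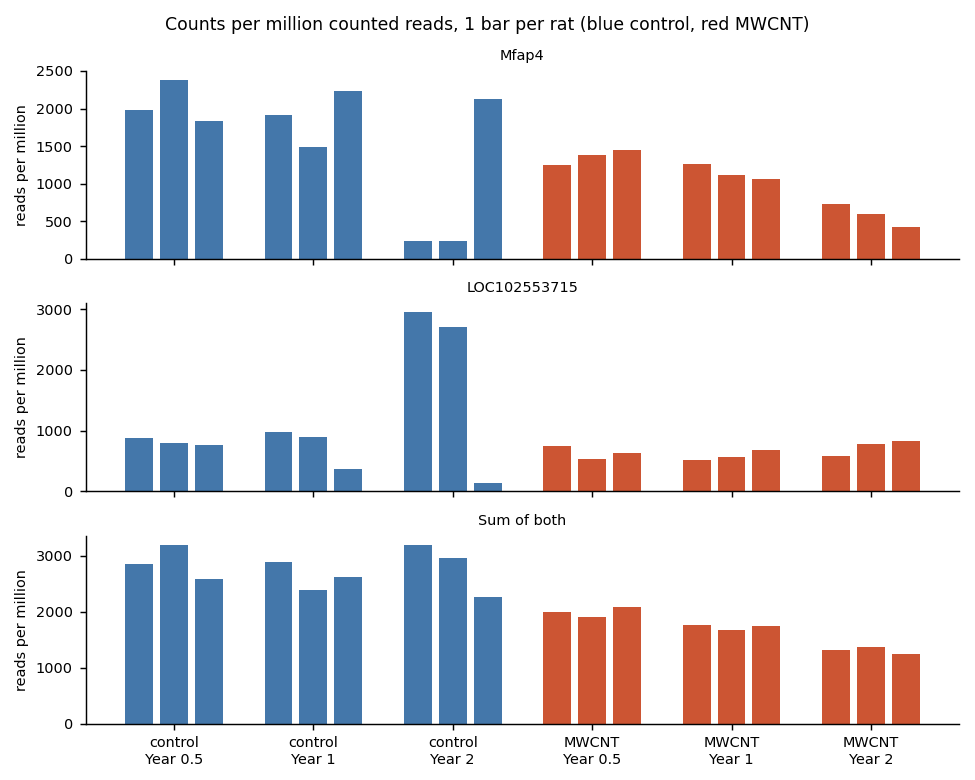
CPM, as reads of the entry scaled to library size (vertical axes, from 0) of *Mfap4*, of LOC102553715, and of their sum in each of the 18 rats, 1 bar per rat, grouped by treatment and time point, blue for control and red for MWCNT-treated rats. The first 2 controls of Year 2 are low for *Mfap4* and high for LOC102553715, and the sum shows no such split.

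Of 12 other genes of elastic fibers tested, 3 were lower and 3 higher at Year 0.5, and 2 were lower and 2 higher at Year 1. At Year 2, 3 were lower and 6 higher. Of all genes tested, 18.6%, 19.6%, and 24% were lower at the 3 time points. Called higher were 20.2% at Year 0.5 and 25.2% at Year 2. In the list, *Fbln2*, a fibulin gene, was the lowest, at -1.30 (FDR = 0.0019), -1.43 (FDR = 0.00065), and -1.19 (FDR = 0.00016). *Efemp2*, whose product is needed to assemble elastin, was the highest, at 0.64 (FDR = 0.00034), 0.57 (FDR = 0.00079), and 0.71 (FDR = 6.7e-05). Of the relatives of *Mfap4* by name, *Mfap5* was lower at Year 0.5 (-0.55, FDR = 0.0048) and Year 2 (-0.58, FDR = 0.011), and *Mfap2* was not called.

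Relatives of the remaining members varied. *Msc*, which encodes a transcription factor of the same family as *Tcf21*, was at 0.99 (FDR = 0.12), 0.62 (FDR = 0.15), and 1.51 (FDR = 0.012). *Lmo7*, whose domains resemble those of *Limch1*, was lower at each time point, at -0.24, -0.28, and -0.36. *Dst*, a spectraplakin gene like *Macf1*, was called at Year 1 only (-0.45, FDR = 0.042). *Fgf22* had at most 1 count in any rat.

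With time, several members declined in the controls as well. Between Years 0.5 and 2, 4 of 10 were called in the controls, all lower, where 6.65% of the 14843 genes tested were called and 4% were lower. These were *Scube2* (-0.86 ± 0.13, FDR = 0.00162), *Npnt* (-0.71 ± 0.08, FDR = 0.000489), *Limch1* (-0.41 ± 0.10, FDR = 0.0255), and *Gpc3* (-0.41 ± 0.11, FDR = 0.0317). Scaling by library size alone left 2 of the 4, since *Limch1* had an FDR of 0.0523 and *Gpc3* of 0.0514, and the count was also 2 without the third control of Year 0.5 or the second of Year 2. Single rats ended the call of *Limch1* in 4 fits and of *Gpc3* in 3. Between Years 0.5 and 1 no member was called in the controls by edgeR, 0 had an unadjusted p below 0.05, and 0 of all genes were called.

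In the MWCNT-treated rats, 7 of 10 were called between Years 0.5 and 2, 6 lower and 1 higher, where 13.5% of all genes were called, 6.87% lower and 6.65% higher. *Scube2* fell by 1.36 ± 0.14 (FDR = 1.64e-05), *Limch1* by 0.90 ± 0.10 (FDR = 4.37e-05), *Fgfr4* by 0.64 ± 0.13 (FDR = 0.0040), *Gpc3* by 0.59 ± 0.11 (FDR = 0.00177), *Tcf21* by 0.51 ± 0.08 (FDR = 0.000352), and *Npnt* by 0.50 ± 0.08 (FDR = 0.000815). *Inmt* rose by 0.60 ± 0.17 (FDR = 0.0243), from 48.3 ± 6.67 TPM to 69.0 ± 11.3 TPM (SD, n = 3), a call lost when any 1 of 4 of these 6 rats was left out. *Macf1*, at -0.48 ± 0.16, missed the threshold (FDR = 0.0534) and passed it without the second treated rat of Year 1 (FDR = 0.000173). Thus the rise of *Npnt* under treatment at Year 2 was measured against controls that had themselves declined from 167 ± 6.38 to 101 ± 14.9 TPM.

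Whether the change under treatment differed between Years 2 and 0.5 was tested by the interaction. No member passed the FDR by edgeR, where 1.31% of all genes did. The share of all genes with an unadjusted p below 0.05 is not given here, and 5 of 10 members had one. These were *Limch1* (-0.50 ± 0.14, FDR = 0.0974), *Scube2* (-0.50 ± 0.19, FDR = 0.222), *Fgfr4* (-0.49 ± 0.18, FDR = 0.222), *Tcf21* (-0.28 ± 0.11, FDR = 0.237), and *Macf1* (-0.51 ± 0.22, FDR = 0.324), all toward a larger fall at Year 2. DESeq2 called 1, *Limch1* (FDR = 0.0214). Leaving out the second treated rat of Year 1, which belongs to none of the groups compared, called *Limch1* (FDR = 0.0279) and *Macf1* (FDR = 0.0117). Leaving out the third control of Year 2 called *Mfap4* (1.94, FDR = 0.00319). The effects of time share their rats with the comparisons within years and are not independent of them.

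The members did not move as 1 block. Over the 18 rats, the 45 pairs of members had Pearson correlations of log2 CPM from -0.69 to 0.99 with a median of 0.52. After the mean of each group was removed, the 45 correlations ranged from -0.48 to 0.82 with a median of 0.08. The second MWCNT-treated rat of Year 1, in which *Macf1*, *Limch1*, *Scube2*, and *Fgfr4* were low together, is among these rats. These correlations describe 18 rats in 6 groups and carry no test. Over the 18 rats, the lowest correlation was between *Inmt* and *Npnt*. After the group means were removed, it was between *Inmt* and *Macf1*.

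Outside the members, the genes whose log2 CPM was most like each of them over the 18 rats were looked up. For *Tcf21* these included *Abi3bp* (r = 0.98), for *Limch1* they were *Akap2* (r = 0.99) and *Ace* (r = 0.99), for *Fgfr4* *Mprip* (r = 0.99) and *Tbx4* (r = 0.99), and for *Scube2* *Prex2* (r = 0.99) and *Lmo7* (r = 0.98). *Npnt* was most like *Cat* (r = 0.97) and *Man1a2* (r = 0.94), and *Gpc3* most like *P3h2* (r = 0.92) and *Niban1* (r = 0.90). For *Macf1*, *Agrn* (r = 0.97) and *Ahnak* (r = 0.97) led over all rats but were at 0.64 and 0.49 within the 9 controls. *Fgf10* was most like *Ctcf* (r = 0.95) and *Tmem45a* (r = 0.93), with 0.44 and 0.51 within the 9 treated rats. *Inmt* was most like *Fbxo22* (r = 0.89) and *Pink1* (r = 0.88). *Mfap4*, with its split controls, was most like LOC108348142 (r = 0.91) and *Hmg1l1* (r = 0.91).

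Other genes known from alveolar fibroblasts, a list of 16 without the members, were mostly lower as well. This list, like the members, was chosen with earlier results of these data known. At Year 0.5, 15 were lower and 0 higher, at Year 1, 10 were lower and 0 higher, and at Year 2, 13 were lower and 1 higher. Of all genes tested, 18.6%, 19.6%, and 24% were lower. The medians of the list were -0.70, -0.61, and -0.95. Its lowest gene at each time point was *Slc7a10*, an amino acid transporter gene, at -1.44 (FDR = 0.00024), -1.55 (FDR = 0.00055), and -3.52 (FDR = 2.8e-06). Its level at Year 2 was 53.3 ± 4.64 TPM in the controls and 4.02 ± 1.61 TPM in the treated rats (SD, n = 3). *Hsd11b1*, which encodes an enzyme that activates glucocorticoids, was the gene called higher at Year 2 (0.42, FDR = 0.0037) after a lower call at Year 0.5 (-0.23, FDR = 0.022).

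The list of general and adventitial fibroblast genes was mixed, beside the shares of all genes given above. Of 11 tested, 4 were lower and 2 higher at Year 0.5, 4 were lower and 1 higher at Year 1, and 3 were lower and 4 higher at Year 2. *Dcn*, a proteoglycan gene, was the lowest, at -0.95 (FDR = 0.0030), -0.92 (FDR = 0.027), and -1.31 (FDR = 0.0027). The highest was the collagen gene *Col3a1* at Year 0.5 (0.59, FDR = 0.020) and Year 1 (0.47, FDR = 0.0021), and *Scara5* at Year 2 (1.27, FDR = 0.00023). Of 12 markers of myofibroblasts and smooth muscle, 7 were lower and 3 higher at each time point, from the contractile gene *Cnn1* (-1.31 at Year 2, FDR = 0.0025) to *Hhip* (1.42 at Year 2), which the hedgehog list also holds.

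Markers of other cells of the septum moved in the same samples. All 8 endothelial markers were lower at each time point, and of 8 markers of alveolar type 1 cells 8, 7, and 8 were lower. Of 9 markers of alveolar type 2 cells, 9, 7, and 8 were higher, and all 8 macrophage markers were higher. The macrophage markers summed to 575 to 780.01 TPM in the controls and to 2948 to 5678 TPM in the treated rats. The sums were 6137 to 7172 TPM against 2759 to 4499.9 TPM for type 1 markers and 1546 to 2129 TPM against 552 to 1107 TPM for endothelial markers. The part of such shifts in cell makeup in the values of the members was not tested. Lymphocyte markers gave 4, 1, and 3 lower and 1 higher at each time point of 6, mesothelial markers 0, 0, and 1 lower and 0, 3, and 1 higher of 4, and airway markers 2, 2, and 1 lower of 3.

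**Figure D5:**
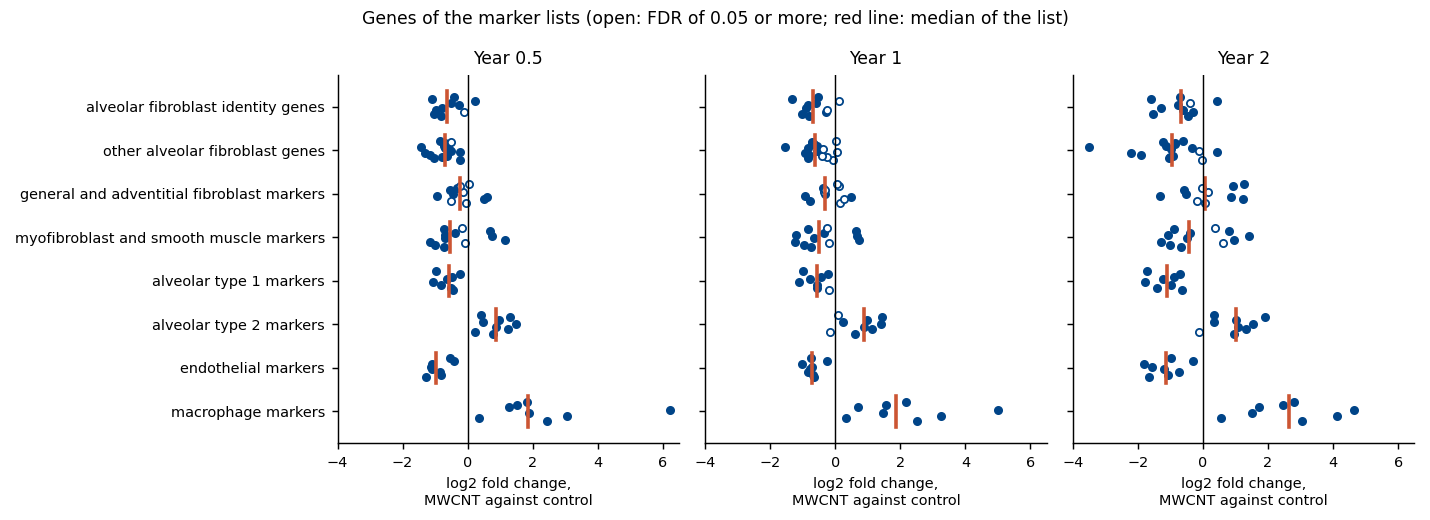
Log2 fold change of MWCNT-treated against control rats (horizontal axes) of each gene in 8 lists (rows), with 1 panel per time point, filled where the FDR was below 0.05, with a red line at the median of the list. The medians of both alveolar fibroblast lists lie between -0.61 and -0.95, the alveolar type 1 and endothelial lists lie to the left of 0, and the medians of the macrophage and type 2 lists lie to the right of 0.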

How the data were processed

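Whole lung RNA-seq of 18 rats was analysed. The authors sequenced libraries made with the NEBNext Ultra II kit and mapped the reads with CLC Genomics Workbench to a rat genome that the submitters' processing notes name as Rnor_6.0 and rn6. The authors deposited raw counts per gene and TPM. Their handling of reads that match several places is not given in the sources used here and is fixed in these counts. The deposited RPKM and CPM columns and the authors' own comparisons (fold changes and p-values) were not used.

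Counts were tested in R 4.3.3 with edgeR 4.0.16 (filterByExpr, min.count = 10, min.total.count = 15, TMM factors, quasi-likelihood test, Benjamini-Hochberg FDR over all genes tested), separately on the 6 rats of each time point. Effects of time and the interaction came from one model of 18 rats. The scripts were tested on simulated data. Alternatives were DESeq2 1.42.0, limma 3.58.1 on log2(TPM + 1) and log2(TPM + 0.1), library size only, upper quartile scaling, other filters, one model of 18 rats, a replicate block, and each rat left out. Correlations used log2 CPM with a prior count of 2. Deviations from group means of same-numbered rats correlated at 0.007 on average over 9 pairs, against -0.003 over 18 pairs with different numbers. So few pairs cannot exclude a pairing, and the main tests used none.

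All members were named. From each other list and time point, the genes with the highest and the lowest log2 fold change among those called may be named, with all closest relatives and, for each member, the 2 genes most like it. For *Tcf21*, 1 of these is not reported here. The members and lists were chosen with earlier results of these data known. *Col1a2*, *Pecam1*, *Car4*, *Foxj1*, and *Gpc5* were not matched in the tables and were not analysed here.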

Additional observations from a re-analysis of the deposited data

How the results depend on the processing

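Of 1206 values of the 10 genes over all alternatives, 676 with a rat left out and 450 others kept their direction and their side of the threshold. When each rat was left out, the number of DEGs was 0 to 3 at Year 0.5, 1 to 3 at Year 1, and 3 to 4 at Year 2. At Year 1, limma called 4 DEGs on log2(TPM + 1) and 5 when 0.1 was added instead. With 0.1 added, the median of all genes moved by -0.24, and the share of all genes called is not given here. The number past the FDR ranged from 7 to 9 at each time point, from 2 to 6 for time in the controls, where library size only gave 2, and from 6 to 8 for time in the treated rats. For the interaction it ranged from 0 to 2, with 1 by DESeq2 and 1, *Macf1*, when only the rats compared were used. Signs changed for 3 genes. *Npnt* at Year 1 was at -0.0087 with library size only and at -0.11 with either limma fit. *Mfap4* at Year 2 was at 0.13 with either limma fit, at 0.49 with the replicate block, and between -0.86 and 1.43 without single rats. Its interaction was between -0.35 and 1.94 without single rats, with signs that changed at -0.025, -0.35, -0.35, and -0.13, and at -0.50 when summed with LOC102553715, a setting chosen after seeing the data. *Macf1* over time in the controls was at -0.0147 without the second control of Year 2. The replicate block gave 9, 8, and 8 members past the FDR at the 3 time points, and it lost *Gpc3* at Year 2 (-0.30, FDR = 0.0859). In one model of 18 rats, *Macf1* (FDR = 0.188) and *Mfap4* (FDR = 0.499) at Year 0.5 and *Mfap4* at Year 1 (FDR = 0.398) were not called. The causes were not tested. Library size only moved the median of all genes by -0.10, -0.13, and -0.17. With 3 rats per group, changes as small as those of *Gpc3* lie near the limit of what was called, and p-values cover the spread between these rats in a single lobe.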
